A study of Mus musculus with 10 samples.

Results

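The genes examined were the plasma membrane and organelle carriers of amino acids, glucose and monocarboxylates, taken as every mouse gene whose symbol belongs to the Slc1, Slc2, Slc3, Slc6, Slc7, Slc16, Slc36, Slc38 or Slc43 family. This rule named 87 of the 24538 genes in the series, and 86 of them had at least 1 transcript (Slc6a16 had none). The rule used symbols only and no measured value. RNA had been sequenced from prostate cells of C57BL/6 mice, 8 to 12 weeks old, sorted by surface antigens after removal of lineage-positive (Lin+) cells. The 2 stromal libraries came from the Lin-/CD24-/CD49f- gate and the 2 basal libraries from the Lin-/CD24low/CD49fhigh gate. The luminal gate, Lin-/CD24high/CD49flow, was split by the antigen Sca-1 into 3 Sca-1+ luminal and 3 Sca-1- luminal libraries. No genotype or treatment differs between the groups in the labels. All libraries share 1 description that includes a culture of dissociated cells in medium with serum, insulin, glutamine and dihydrotestosterone, which leaves unstated whether cells were grown before or after sorting.

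Cells take up most amino acids and sugars through carrier proteins, and the families differ in what they carry and in what drives transport. Slc7 light chains such as LAT1 (Slc7a5) exchange one amino acid for another and reach the cell surface only when paired with a heavy chain, 4F2hc (Slc3a2) or rBAT (Slc3a1). Slc1 and Slc38 carriers concentrate glutamine and other small neutral amino acids by coupling them to sodium, and so load the cell with the substrates that the exchangers trade for leucine. Slc2 carriers (GLUTs) let hexoses cross down their gradient, and the proton-linked members of Slc16 (MCTs) move lactate and pyruvate in either direction with a proton. Prostate luminal cells are known for secreting large amounts of protein and citrate, a product that draws on glucose and aspartate.

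Sequencing depth, read from the confidence bounds of the deposited values, was 20300000 to 27200000 fragments per library. Nothing in the labels says that the libraries of a group came from separate mice, so p-values measure only the spread between these libraries, which may be technical. In bulk RNA, fewer cells of a type and less RNA per cell cannot be told apart. The summed FPKM (fragments for each kilobase of a transcript, relative to library depth) of 4 basal markers was 2537 and 2571 in the basal libraries, against 8.89 to 167 in the other 8. The 4 luminal markers summed to 20280 to 38790 FPKM in the Sca-1- and to 3132 to 7514 FPKM in the Sca-1+ luminal libraries. The 3 Sca-1+ luminal libraries stood apart from each other: 5 fibroblast markers summed to 4263, 2158 and 297 FPKM in replicates 1, 2 and 3. That sum was 6214 and 4609 FPKM in stromal, 672 and 482 FPKM in basal and 72.8 to 122 FPKM in Sca-1- luminal libraries. Dcn made up most of the sum in every library, with 655 and 459 FPKM in basal libraries. Col1a1 had only 7.17 and 8.77 FPKM in basal libraries, against 317 and 314 FPKM in stromal libraries. In Sca-1+ luminal replicates 1 to 3 Col1a1 had 360, 190 and 22.4 FPKM. Erythroid markers (5 genes) reached 1007 FPKM in Sca-1- luminal replicate 3, against 5.21 to 198 FPKM in the other 9 libraries. In Sca-1+ luminal replicates 1 to 3 the erythroid sums (198, 149 and 100 FPKM) had the order of the fibroblast sums. So did the sums of 5 endothelial markers there (25.3, 19.9 and 4.81 FPKM). The sums of 4 smooth muscle markers (171, 227 and 14.7 FPKM) were also lowest in replicate 3. Seminal vesicle markers (4 genes) summed to 7168, 4017 and 4472 FPKM in Sca-1+ luminal replicates 1 to 3 and to 18810, 1398 and 42530 FPKM in those of Sca-1- luminal cells, against 80.4 to 138 FPKM in the stromal and basal libraries. Leukocyte markers (6 genes) summed to 234, 375 and 242 FPKM in Sca-1+ and to 427, 127 and 518 FPKM in Sca-1- luminal cells, against 19.8 to 40.9 FPKM in the stromal and basal ones. Cd52 made up most of these luminal sums, with 365, 96.4 and 492 FPKM in Sca-1- luminal replicates 1 to 3. No other gene of the list had the order of the sum in that group. Ptprc, Laptm5, Tyrobp and Cd74 were lowest in its replicate 3, Cd74 with 55.4, 26.0 and 22.7 FPKM. The part of these marker RNAs in the results was not tested.

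Summed over all members, transporter mRNA was lowest in Sca-1- luminal cells. The sum was 1333 and 1445 FPKM in the stromal libraries, 1578 and 1382 FPKM in basal, 1322, 1087 and 1035 FPKM in Sca-1+ luminal, and 803, 791 and 732 FPKM in Sca-1- luminal libraries. Every Sca-1- luminal library lay below every other library. As a share of the FPKM of all genes, the members made up 0.333% ± 0.0138 in stromal and 0.404% ± 0.0421 in basal libraries (SD, n = 2 each), 0.277% ± 0.0515 in Sca-1+ luminal and 0.126% ± 0.00614 in Sca-1- luminal libraries (SD, n = 3 each). Slc2a1, Slc3a2, Slc1a5, Slc38a2 and Slc16a1 together gave 60.3% of the members' FPKM in stromal, 74.3% in basal, 67.2% in Sca-1+ luminal and 54.0% in Sca-1- luminal libraries on average. FPKM are scaled by length and library depth, so a few very abundant transcripts in a library lower the value of every other gene in it.

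**Figure D1:**
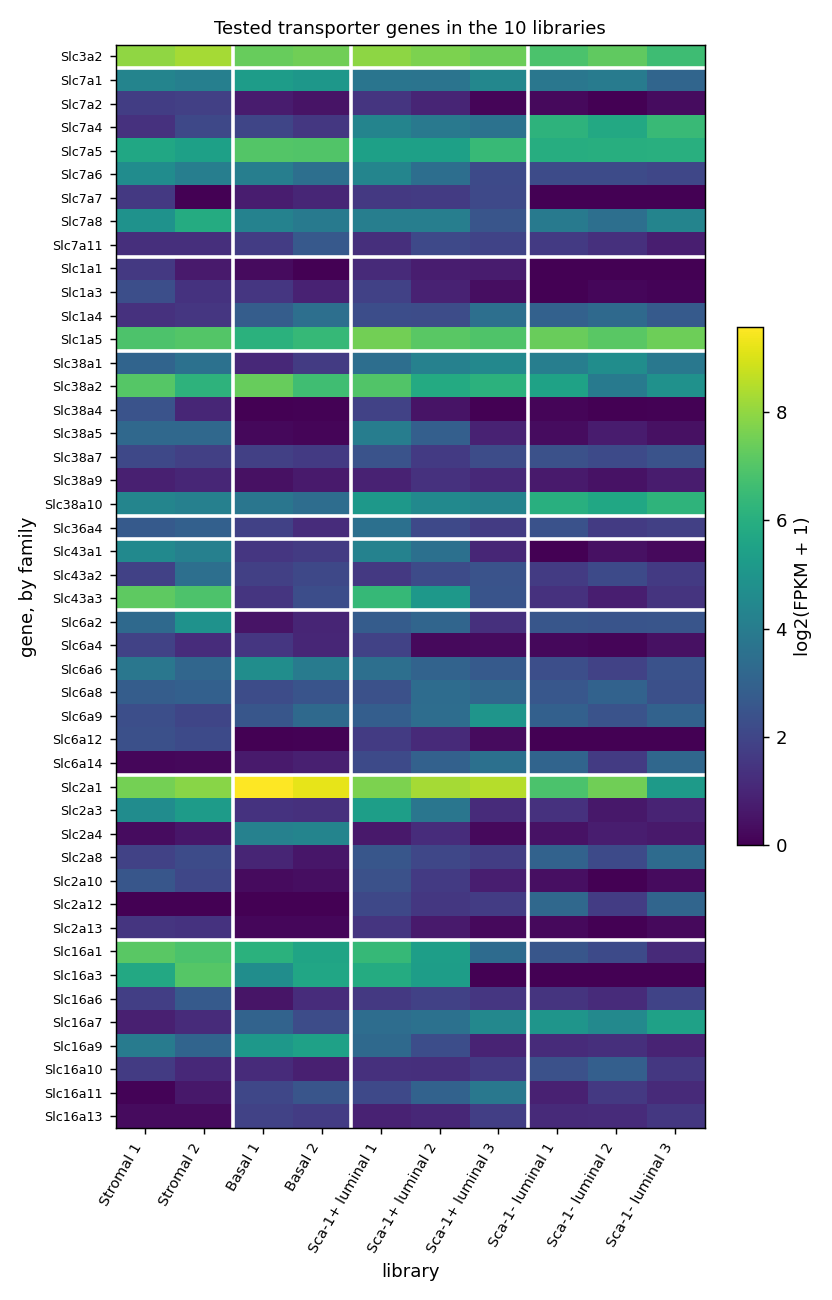
Level of 46 of the 47 tested transporters in each of the 10 libraries, as log2(FPKM + 1), with libraries in columns from stromal at the left to Sca-1- luminal at the right and genes in rows grouped by family. Slc2a1, Slc3a2 and Slc1a5 are high in every library, and Slc43a3 and Slc2a3 are high in stromal libraries and in replicates 1 and 2 of Sca-1+ luminal cells.

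Levels high enough to test, at least 1 FPKM in at least 2 libraries, were reached by 47 members among 12467 genes. Of the 40 others, 6 were listed at 0 in all 10 libraries and 6 had at least 1 FPKM in exactly 1 library. Slc1a1 was the member closest to the limit from inside, with a highest value of 2.02 FPKM and 2 libraries at 1 FPKM or more. Just outside it were Slc7a3, Slc38a6, Slc7a12, Slc1a7, Slc36a1 and Slc38a11, with highest values of 2.74, 1.47, 1.24, 1.13, 1.13 and 1.10 FPKM. Changes are differences of group means of log2(FPKM + 1), a scale that understates the change of low genes. A change was called when the limma p-value, adjusted over the 12467 genes by the method of Benjamini and Hochberg, was below 0.05.

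The 4 groups were set against each other in 4 comparisons, with the same 47 members tested in each. Between Sca-1+ and Sca-1- luminal cells, 18 of 47 members were called, against 35.3% of all genes tested. Higher in Sca-1+ luminal cells were 15 members, including the lactate carriers Slc16a1 and Slc16a3, GLUT1 (Slc2a1), Slc43a1 and Slc43a3, against 21.8% of all genes. Slc7a4, Slc38a10 and Slc16a7 made up the 3 lower members, against 13.4% of all genes. The median log2 change was 0.54 over the members and 0.19 over all genes tested. Under median-of-ratios scaling 11 members were higher and 5 lower, and under quantile normalization 12 were higher and 6 lower. The count of 18 became 10 and 7 on omitting replicate 1 or replicate 2 of Sca-1+ luminal cells, and 9 on omitting replicate 1 or 3 of Sca-1- luminal cells. The share of all genes called fell too, from 35.3% to 26.5% and 22.2% in the first 2 fits and to 25% and 22.2% in the others.

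Basal against Sca-1- luminal cells called 20 of 47 members, a share close to the 46.2% of all genes. Of these, 10 were higher and 10 lower, against 20.2% of all genes higher and 26% lower. Slc2a4, Slc16a9 and the lactate carriers were among the higher ones, and Slc7a4, Slc38a1 and Slc38a10 among the lower ones. The median log2 change was 0.15 over the members and -0.05 over all genes.

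Basal against Sca-1+ luminal cells called 13 of 47 members, against 19.9% of all genes. Of these, 5 were higher, against 4.39% of all genes, and 8 were lower, against 15.5%. The median log2 change was -0.63 over the members and -0.29 over all genes. The scaling moved this split, to 5 higher and 6 lower with median-of-ratios scaling and to 6 higher and 3 lower with quantile normalization. The count of 13 became 5 and 23 on omitting replicate 2 or replicate 3 of Sca-1+ luminal cells, with 12.1% and 29% of all genes called. It also fell on omitting either basal library, which leaves 1, as did the share of all genes called.

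Stromal cells against the mean of the 3 epithelial groups called 25 of 47 members, against 34.3% of all genes. Higher were 17 members, against 15.8% of all genes, led by Slc43a3 and Slc2a3. The other 8 were lower, against 18.5% of all genes, led by Slc16a7 and Slc7a4. The median log2 change was 0.59 over the members and -0.12 over all genes. The count fell on omitting either stromal library, as did the share of all genes called. All 4 comparisons share libraries, so their counts are not independent of each other.

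**Figure D2:**
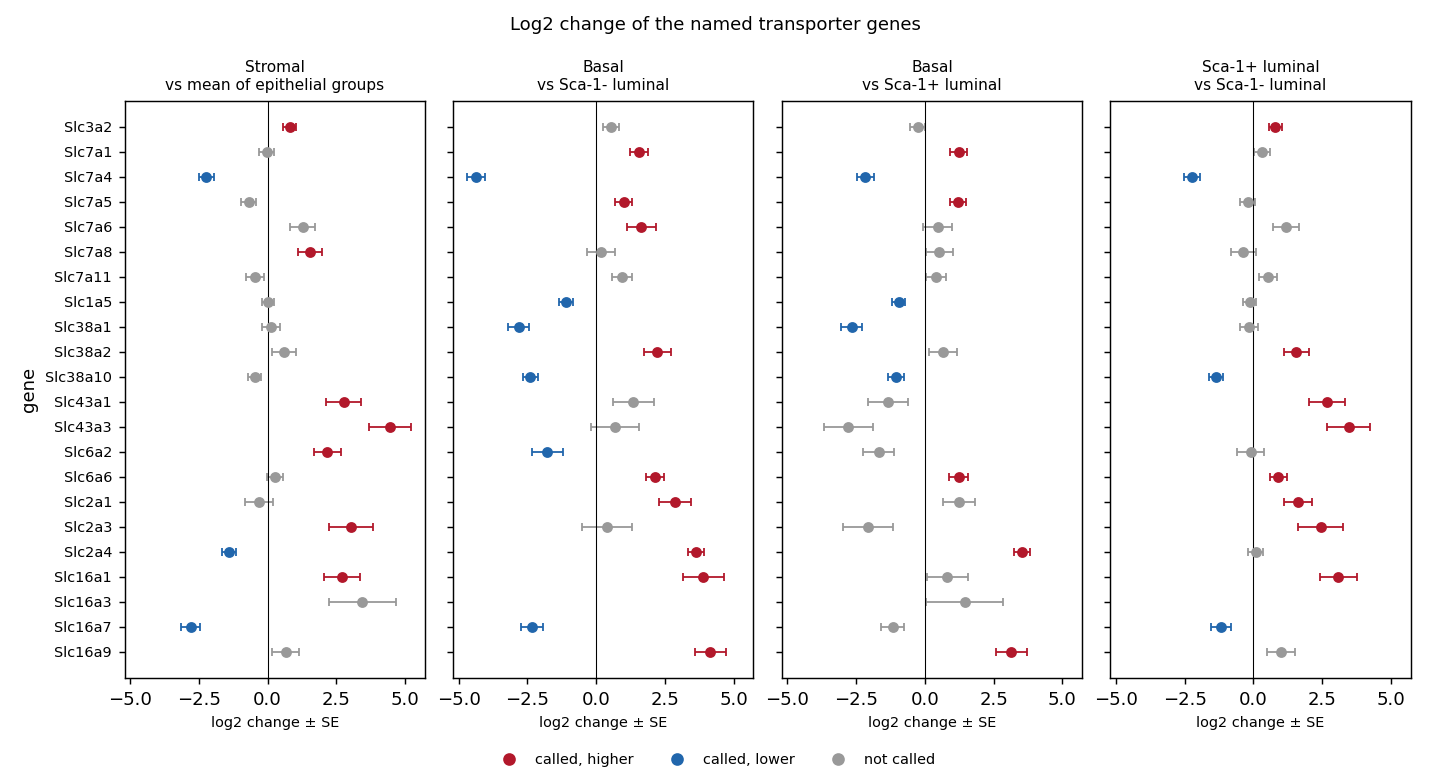
Change of 22 transporters on the log2(FPKM + 1) scale in each comparison, with the standard error of the limma fit as bars, and called changes in red (higher) or blue (lower) and others in grey. Slc16a3 is left out where it is compared with Sca-1- luminal cells, in which it was listed at 0. Slc7a4 lies below 0 in all 4 panels, and Slc16a1 lies above 0 wherever it was called.

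Amino acid exchangers of the heteromeric type were present in every group. The heavy chain Slc3a2 had 252 and 310 FPKM in stromal, 162 and 179 FPKM in basal, 246, 205 and 168 FPKM in Sca-1+ luminal and 113, 147 and 95.7 FPKM in Sca-1- luminal libraries. All Sca-1+ luminal libraries lay above all Sca-1- luminal libraries, by a log2 change of 0.80 ± 0.25 (SE; limma adjusted p = 0.0337). This call was lost under median-of-ratios scaling and when any of 6 libraries was left out (both basal libraries, replicates 1 and 2 of Sca-1+, replicates 1 and 3 of Sca-1- luminal cells; adjusted p up to 0.104). Stromal libraries lay above the epithelial mean by 0.81 ± 0.24 (SE; limma adjusted p = 0.0288), a call lost on omitting a stromal library, a basal library or replicate 1 of Sca-1- luminal cells (adjusted p up to 0.183). The other heavy chain, Slc3a1, was listed at 0 in all 10 libraries.

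The leucine carrier Slc7a5 (LAT1) was highest in basal cells, with 125 and 124 FPKM. Stromal libraries had 50.5 and 41.6 FPKM, Sca-1+ luminal libraries 42.6, 41.8 and 85.4 FPKM, and Sca-1- luminal libraries 60.5, 62.0 and 63.8 FPKM. Both basal libraries exceeded the other 8. The log2 change was 1.21 ± 0.31 against Sca-1+ luminal cells and 1.00 ± 0.31 against Sca-1- luminal cells (SE; limma adjusted p = 0.0227 and 0.0237). Leaving out a basal library or a library of the compared group ended the call, except Sca-1+ luminal replicate 3 in the first comparison (adjusted p up to 0.133 and 0.106).

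Slc7a8 (LAT2), an exchanger of neutral amino acids of many sizes, was instead highest in stroma, at 28.6 and 58.5 FPKM. Basal libraries had 17.9 and 14.1 FPKM, Sca-1+ luminal libraries 15.8, 15.8 and 4.66 FPKM, and Sca-1- luminal libraries 14.3, 10.3 and 18.8 FPKM. Stromal libraries did not overlap the others, and the log2 change against the epithelial mean was 1.54 ± 0.43 (SE; limma adjusted p = 0.0224; not called without either stromal library, adjusted p up to 0.217). Slc7a6 (y+LAT2), which exchanges arginine for neutral amino acids, had 15.9 and 10.2 FPKM in basal and 3.58, 3.59 and 3.09 FPKM in Sca-1- luminal libraries. That change of 1.64 ± 0.53 (SE; limma adjusted p = 0.0294) was not called when any of these 5 libraries was left out (adjusted p up to 0.178). Its levels in Sca-1+ luminal libraries, 19.6, 9.92 and 3.38 FPKM, overlapped those of the Sca-1- luminal libraries. Slc7a7 (y+LAT1) had 0 FPKM in all 3 Sca-1- luminal libraries and 1.98, 2.15 and 3.30 FPKM in Sca-1+ luminal libraries, which were called higher (limma adjusted p = 0.00588).

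Slc7a11 (xCT), which brings in cystine in exchange for glutamate, was low in every group and called in no comparison. It had 1.45 and 1.47 FPKM in stromal, 2.25 and 5.42 FPKM in basal, 1.47, 3.31 and 2.81 FPKM in Sca-1+ luminal and 2.05, 1.5 and 0.746 FPKM in Sca-1- luminal libraries. Per length, mRNA of the heavy chain exceeded the summed mRNA of its light chains (Slc7a5, Slc7a6, Slc7a7, Slc7a8, Slc7a10 and Slc7a11) in 9 of 10 libraries. The ratio was 2.37 and 2.64 in stromal, 0.996 and 1.15 in basal, 3.02, 2.81 and 1.68 in Sca-1+ luminal and 1.40, 1.90 and 1.11 in Sca-1- luminal libraries. Slc7a5 made up 41.4% of the light chain FPKM in stromal, 78.7% in basal, 65.1% in Sca-1+ luminal and 76.4% in Sca-1- luminal cells on average.

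**Figure D3:**
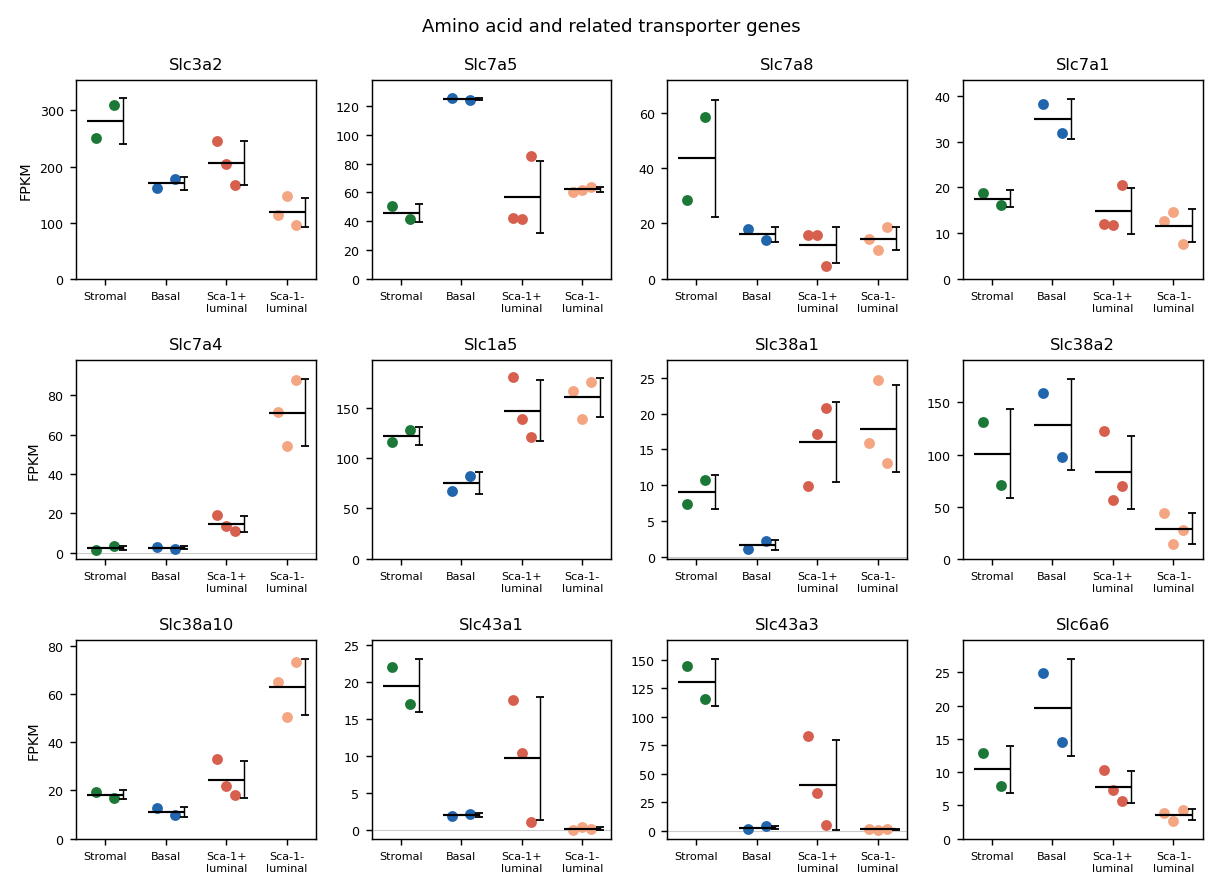
FPKM of amino acid transporters in each library (points), with the group mean and SD (bars; n = 2 stromal, 2 basal, 3 Sca-1+ luminal and 3 Sca-1- luminal libraries), each panel on its own linear axis. Slc7a5 and Slc7a1 are highest in the basal libraries, Slc7a4 and Slc38a10 in the Sca-1- luminal libraries, and Slc43a3 in the stromal libraries.

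Among the Slc7 members that work without a heavy chain, Slc7a1 (CAT-1), the main carrier of arginine and lysine in most cells, had 18.8 and 16.2 FPKM in stromal, 38.2 and 32.0 FPKM in basal, 12.1, 11.7 and 20.6 FPKM in Sca-1+ luminal and 12.6, 14.5 and 7.62 FPKM in Sca-1- luminal libraries. Basal libraries did not overlap any other group, and they were higher than Sca-1- luminal cells by 1.56 ± 0.32 (SE; limma adjusted p = 0.00339). Against Sca-1+ luminal cells the difference was 1.23 ± 0.32 (SE; limma adjusted p = 0.0247), a call lost without either basal library or Sca-1+ luminal replicate 1 or 2 (adjusted p up to 0.159). Slc7a2 (CAT-2), another cationic amino acid carrier, had 2.36 and 2.53 FPKM in stromal libraries, against 0.0056 to 1.76 FPKM in the epithelial ones. It was called higher in stroma by 1.22 ± 0.29 (SE; limma adjusted p = 0.0116), a call lost without either stromal library (adjusted p up to 0.0875).

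Slc7a4, a relative of the cationic carriers with no established substrate, was the only member called in all 4 comparisons. Its gene, ENSMUSG00000022756, lies on chromosome 16 of mm10 at 17572018 to 17583214. It had 1.59 and 3.21 FPKM in stromal, 2.98 and 1.94 FPKM in basal, 19.0, 13.6 and 11.1 FPKM in Sca-1+ luminal and 71.7, 54.1 and 87.7 FPKM in Sca-1- luminal libraries. The luminal groups did not overlap each other, and both lay above every stromal and basal library. Within the Sca-1- luminal group the order, replicate 3 highest and replicate 2 lowest, was that of the seminal vesicle sums (18810, 1398 and 42530 FPKM). It was also that of the leukocyte sums (427, 127 and 518 FPKM), which were mostly Cd52. Sca-1+ luminal cells were lower than Sca-1- luminal cells by a log2 change of -2.22 ± 0.29 (SE; limma adjusted p = 0.000937). Basal cells were lower than Sca-1- luminal cells by -4.37 ± 0.33 and lower than Sca-1+ luminal cells by -2.15 ± 0.33 (SE; limma adjusted p = 2.08e-05 and 0.00257). Stromal cells were lower than the epithelial mean by -2.23 ± 0.28 (SE; limma adjusted p = 0.000896). That mean includes the luminal libraries, and the stromal values overlapped those of the basal libraries. All 4 calls held whichever of the 10 libraries was left out, and with replicate 3 as the lone Sca-1+ luminal library the change against Sca-1- luminal cells was -2.54 (limma adjusted p = 0.00492).

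Glutamine carriers of the Slc1 family were dominated by Slc1a5 (ASCT2), which exchanges glutamine, serine and alanine across the membrane. It had 116 and 128 FPKM in stromal, 67.1 and 82.6 FPKM in basal, 181, 139 and 121 FPKM in Sca-1+ luminal and 167, 139 and 175 FPKM in Sca-1- luminal libraries. The basal libraries were the lowest of the 10. Basal cells were lower than Sca-1- luminal cells by -1.09 ± 0.25 (SE; limma adjusted p = 0.00621), a call lost without basal replicate 1 (adjusted p = 0.0673). They were lower than Sca-1+ luminal cells by -0.95 ± 0.25 (SE; limma adjusted p = 0.0268), a call lost under either other scaling and without either basal library or Sca-1+ luminal replicate 1 or 2 (adjusted p up to 0.189). Of the other tested Slc1 members, the glutamate carriers Slc1a1 and Slc1a3 were called higher and the serine carrier Slc1a4 (ASCT1) lower in stromal cells than in the epithelial mean. Slc1a1 was also called higher in Sca-1+ relative to Sca-1- luminal cells, where it was listed at 0.

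Slc38 carriers differed in which member led. Slc38a2 (SNAT2), a sodium-coupled carrier of alanine and glutamine that is known to be induced when amino acids run short, gave 68.8% of the Slc38 FPKM in stromal, 88.4% in basal and 59.2% in Sca-1+ luminal cells, against 23.8% in Sca-1- luminal cells. Its level was 131 and 70.7 FPKM in stromal, 159 and 98.1 FPKM in basal, 123, 56.5 and 69.4 FPKM in Sca-1+ luminal and 43.9, 14.2 and 27.8 FPKM in Sca-1- luminal libraries. Every Sca-1- luminal library lay below all others. Sca-1+ luminal cells exceeded Sca-1- luminal cells by 1.56 ± 0.45 and basal cells exceeded them by 2.22 ± 0.50 (SE; limma adjusted p = 0.0253 and 0.00549). The first call was lost on omitting replicate 1 of Sca-1+ or replicate 2 or 3 of Sca-1- luminal cells (adjusted p up to 0.0790), and the second without basal replicate 1 (adjusted p = 0.0574).

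Slc38a10 (chromosome 11, 120103960 to 120151346, mm10), a member reported to carry glutamine, glutamate and aspartate, went the other way and gave 54.3% of the Slc38 FPKM in Sca-1- luminal cells. It had 19.6 and 16.9 FPKM in stromal, 12.6 and 9.72 FPKM in basal, 33.1, 22.1 and 18.2 FPKM in Sca-1+ luminal and 65.0, 50.3 and 73.4 FPKM in Sca-1- luminal libraries. Sca-1- luminal libraries did not overlap any other group, and among themselves they had the order of the seminal vesicle and leukocyte sums. The log2 change was -1.35 ± 0.25 in Sca-1+ luminal and -2.39 ± 0.28 in basal cells, each against Sca-1- luminal cells (SE; limma adjusted p = 0.00454 and 0.000182), and both calls held whichever library was left out. Basal against Sca-1+ luminal cells gave -1.04 ± 0.28 (SE; limma adjusted p = 0.0311), which was not called under either other scaling, nor without 5 of the libraries (both basal, Sca-1+ luminal 1 and 2, Sca-1- luminal 1; adjusted p up to 0.220).

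Slc38a1 (SNAT1), another glutamine carrier, was low in basal cells, with 1.13 and 2.17 FPKM. It had 7.38 and 10.8 FPKM in stromal, 9.92, 17.2 and 20.9 FPKM in Sca-1+ luminal and 15.9, 24.8 and 13.1 FPKM in Sca-1- luminal libraries. Both basal libraries lay below all others, by -2.65 ± 0.37 against Sca-1+ and -2.82 ± 0.37 against Sca-1- luminal cells (SE; limma adjusted p = 0.00194 and 0.000325). Both calls held without any 1 of the 10 libraries.

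Slc38a5 (SNAT5), a carrier of glutamine and other small neutral amino acids, had 8.49 and 8.36 FPKM in stromal, 0.152 and 0.107 FPKM in basal, 15.7, 6.38 and 0.901 FPKM in Sca-1+ luminal and 0.240, 0.654 and 0.336 FPKM in Sca-1- luminal libraries. The Sca-1+ values had the order of the fibroblast marker sums (4263, 2158 and 297 FPKM). Sca-1+ luminal cells were called higher by 2.14 ± 0.62 relative to Sca-1- luminal cells (SE; limma adjusted p = 0.0258), a call lost when any of these libraries but replicate 3 of Sca-1+ was left out (adjusted p up to 0.0765). With that replicate alone the change was 0.44 (limma adjusted p = 0.281). Stromal cells were called higher than the epithelial mean by 2.14 ± 0.60 and basal cells lower than Sca-1+ luminal cells by -2.45 ± 0.69 (SE; limma adjusted p = 0.0223 and 0.0351). The stromal call was lost without either stromal library (adjusted p up to 0.139) and the basal one without any 1 of 8 libraries (adjusted p up to 0.174). Slc38a4 was called higher in stroma. Slc38a7 and Slc38a9, both lysosomal, and Slc36a4, the tested member of the proton-coupled Slc36 family, were called in no comparison.

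Slc43 carriers of large neutral amino acids and nucleobases were highest in stromal cells for the 2 members that were called. Slc43a1 (LAT3), a sodium-independent leucine carrier, had 22.0 and 17.0 FPKM in stromal, 1.84 and 2.18 FPKM in basal, 17.6, 10.4 and 1.04 FPKM in Sca-1+ luminal and 0, 0.353 and 0.192 FPKM in Sca-1- luminal libraries. Slc43a3 (chromosome 2, 84936579 to 84958509, mm10), a purine nucleobase carrier, had 145 and 116 FPKM in stromal, 1.81 and 3.81 FPKM in basal, 82.8, 33.0 and 4.61 FPKM in Sca-1+ luminal and 1.55, 0.735 and 1.69 FPKM in Sca-1- luminal libraries. Within the Sca-1+ luminal group, replicate 1 was highest and replicate 3 lowest for both genes, the same order as the fibroblast marker sums of 4263, 2158 and 297 FPKM.

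Stromal cells exceeded the epithelial mean by 2.77 ± 0.64 for Slc43a1 and 4.45 ± 0.76 for Slc43a3 (SE; limma adjusted p = 0.00985 and 0.00287). The Slc43a3 call held whichever library was left out, and that of Slc43a1 was lost without either stromal library (adjusted p up to 0.0985). Sca-1+ luminal cells exceeded Sca-1- luminal cells by 2.69 ± 0.66 for Slc43a1 and 3.46 ± 0.78 for Slc43a3 (SE; limma adjusted p = 0.0134 and 0.00979). With replicate 3 as the lone Sca-1+ luminal library these changes were 0.80 (limma adjusted p = 0.109) and 1.30 (0.0612), neither called, and without Sca-1+ luminal replicate 2 the Slc43a1 call was also lost (0.0505). Slc43a2 (LAT4) was called in no comparison.

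Slc6 carriers bring in neurotransmitters, osmolytes and amino acids with sodium and chloride. The taurine carrier Slc6a6 (TauT) had 12.9 and 7.93 FPKM in stromal, 24.8 and 14.6 FPKM in basal, 10.4, 7.27 and 5.59 FPKM in Sca-1+ luminal and 3.88, 2.69 and 4.27 FPKM in Sca-1- luminal libraries. Every Sca-1- luminal library was below every other, and the Sca-1+ values had the order of the fibroblast marker sums. Basal cells were higher than Sca-1- luminal cells by 2.14 ± 0.34 (SE; limma adjusted p = 0.000889), whichever library was left out. Smaller differences were called for basal over Sca-1+ luminal cells, 1.23 ± 0.34, and Sca-1+ over Sca-1- luminal cells, 0.90 ± 0.30 (SE; limma adjusted p = 0.0317 and 0.0444). The basal call was lost on omitting a basal library, replicate 2 of Sca-1+ or replicate 1 of Sca-1- luminal cells (adjusted p up to 0.238). The luminal call was lost under both other scalings and on omitting replicate 1 or 2 of Sca-1+ or any of the Sca-1- luminal cells (adjusted p up to 0.135).

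The noradrenaline carrier Slc6a2 (NET) had 8.55 and 28.1 FPKM in stromal, 0.436 and 0.966 FPKM in basal, 5.87, 7.75 and 1.54 FPKM in Sca-1+ luminal and 4.85, 4.64 and 4.74 FPKM in Sca-1- luminal libraries. The stromal pair was the highest, though its members differed by more than the Sca-1- luminal libraries did. Stromal cells exceeded the epithelial mean by 2.16 ± 0.49 (SE; limma adjusted p = 0.00891), not called without stromal replicate 2 (0.124). Basal cells were lower than Sca-1- luminal cells by -1.77 ± 0.56 (SE; limma adjusted p = 0.0269), not called when any of these 5 libraries was left out (adjusted p up to 0.151). Among the other tested Slc6 members, the betaine carrier Slc6a12 had 3.98 and 3.46 FPKM in stromal, 0 and 0.0427 FPKM in basal and 2.15, 1.22 and 0.214 FPKM in Sca-1+ luminal libraries, in the order of the fibroblast marker sums, and was listed at 0 in Sca-1- luminal cells. It was called higher in stromal than in epithelial cells (limma adjusted p = 0.00197), whichever library was left out. Its call as higher in Sca-1+ luminal cells (limma adjusted p = 0.0275) was lost when any luminal library but replicate 3 of Sca-1+ was left out (adjusted p up to 0.0812), and that replicate alone gave 0.394. Slc6a14, a broad amino acid carrier of epithelia, was called lower in basal cells than in either luminal group and lower in stroma. The creatine carrier Slc6a8, the glycine carrier Slc6a9 and the serotonin carrier Slc6a4 were called in no comparison.

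Glucose carriers were led by Slc2a1 (GLUT1), the constitutive carrier of most tissues, encoded on chromosome 4 at 119108711 to 119137983 (mm10). It made up 83.9% of the Slc2 FPKM in stromal, 96.9% in basal, 90.0% in Sca-1+ luminal and 82.6% in Sca-1- luminal cells. Its level was 186 and 231 FPKM in stromal, 751 and 589 FPKM in basal, 204, 305 and 354 FPKM in Sca-1+ luminal and 115, 179 and 35.6 FPKM in Sca-1- luminal libraries. Every basal library exceeded, and every Sca-1- luminal library fell short of, all libraries of the other groups. Sca-1- luminal replicate 3, the lowest, was also the library with 1007 FPKM of erythroid markers. The Sca-1- luminal values of Slc2a1 ran opposite to the seminal vesicle sums (18810, 1398 and 42530 FPKM). They also ran opposite to the leukocyte sums (427, 127 and 518 FPKM), which were mostly Cd52.

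Basal cells exceeded Sca-1- luminal cells by a log2 change of 2.86 ± 0.57 for Slc2a1 (SE; limma adjusted p = 0.00302), whichever library was left out. Sca-1+ luminal cells exceeded Sca-1- luminal cells by 1.62 ± 0.51 (SE; limma adjusted p = 0.0356). This second call was lost under median-of-ratios scaling and without any 1 of 8 libraries, all but replicate 1 of Sca-1+ and replicate 2 of Sca-1- luminal cells (adjusted p up to 0.0934). Unlike the fibroblast marker sums, Slc2a1 was highest in Sca-1+ luminal replicate 3, and with that library alone the change was 1.96 (limma adjusted p = 0.106).

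Slc2a4 (GLUT4; chromosome 11, 69942539 to 69948188, mm10), the insulin-responsive carrier of muscle and fat, was a basal gene in these libraries. It had 17.3 and 18.7 FPKM in basal libraries, against 0.252 and 0.506 FPKM in stromal, 0.581, 1.33 and 0.173 FPKM in Sca-1+ luminal and 0.373, 0.683 and 0.591 FPKM in Sca-1- luminal libraries. No library outside the basal group came near the basal pair. The log2 change was 3.54 ± 0.29 against Sca-1+ and 3.62 ± 0.29 against Sca-1- luminal cells (SE; limma adjusted p = 0.000196 and 2.7e-05), whichever library was left out. The call of Slc2a4 as lower in stroma than in the epithelial mean, -1.40 ± 0.25 (SE; limma adjusted p = 0.00358; not called without stromal replicate 1, 0.0553), is against a mean that includes the basal libraries, and its stromal values overlapped those of the luminal libraries.

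Slc2a3 (GLUT3), a carrier of high affinity known from neurons and leukocytes, had 23.9 and 37.0 FPKM in stromal, 1.64 and 1.51 FPKM in basal, 39.5, 12.5 and 1.28 FPKM in Sca-1+ luminal and 1.57, 0.528 and 0.934 FPKM in Sca-1- luminal libraries. Sca-1+ luminal replicate 3 lay within the range of the Sca-1- luminal libraries, and the 3 Sca-1+ values again had the order of the fibroblast marker sums. Stromal cells exceeded the epithelial mean by 3.02 ± 0.80 (SE; limma adjusted p = 0.0173), a call lost without either stromal library (adjusted p up to 0.127). Sca-1+ luminal cells exceeded Sca-1- luminal cells by 2.45 ± 0.82 (SE; limma adjusted p = 0.0428). That call was lost on leaving out any library other than Sca-1+ luminal replicate 3 (adjusted p up to 0.113) and under both other scalings, and with that replicate alone the change was 0.21 (limma adjusted p = 0.745).

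Slc2a12 (GLUT12) was a luminal gene, listed at 0 in all stromal and basal libraries. It had 3.20, 1.94 and 2.23 FPKM in Sca-1+ luminal and 8.46, 2.24 and 7.60 FPKM in Sca-1- luminal libraries, groups that overlapped. It was called lower in basal cells than in Sca-1- and Sca-1+ luminal cells (limma adjusted p = 0.000796 and 0.0173) and lower in stroma than in the epithelial mean (0.0126). The call against Sca-1+ luminal cells was lost without either basal library (adjusted p up to 0.113) and that of stroma without either stromal library (0.0984).

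Slc2a10 (GLUT10) had 4.93 and 3.13 FPKM in stromal, 0.221 and 0.288 FPKM in basal, 4.16, 2.07 and 0.726 FPKM in Sca-1+ luminal and 0.297, 0 and 0.201 FPKM in Sca-1- luminal libraries. The Sca-1+ values had the order of the fibroblast marker sums. Sca-1+ luminal cells were called higher by 1.38 ± 0.36 relative to Sca-1- luminal cells (SE; limma adjusted p = 0.0168), a call lost on omitting replicate 2 of either luminal group (adjusted p up to 0.0515), and replicate 3 as the lone Sca-1+ library gave 0.57 (limma adjusted p = 0.203). Stromal cells were called higher than the epithelial mean by 1.60 ± 0.35 (SE; limma adjusted p = 0.00769; not called without stromal replicate 1, 0.103). Of the remaining Slc2 members, the proton-coupled inositol carrier Slc2a13 was called higher in stroma, and Slc2a8 lower in basal cells than in either luminal group.

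**Figure D4:**
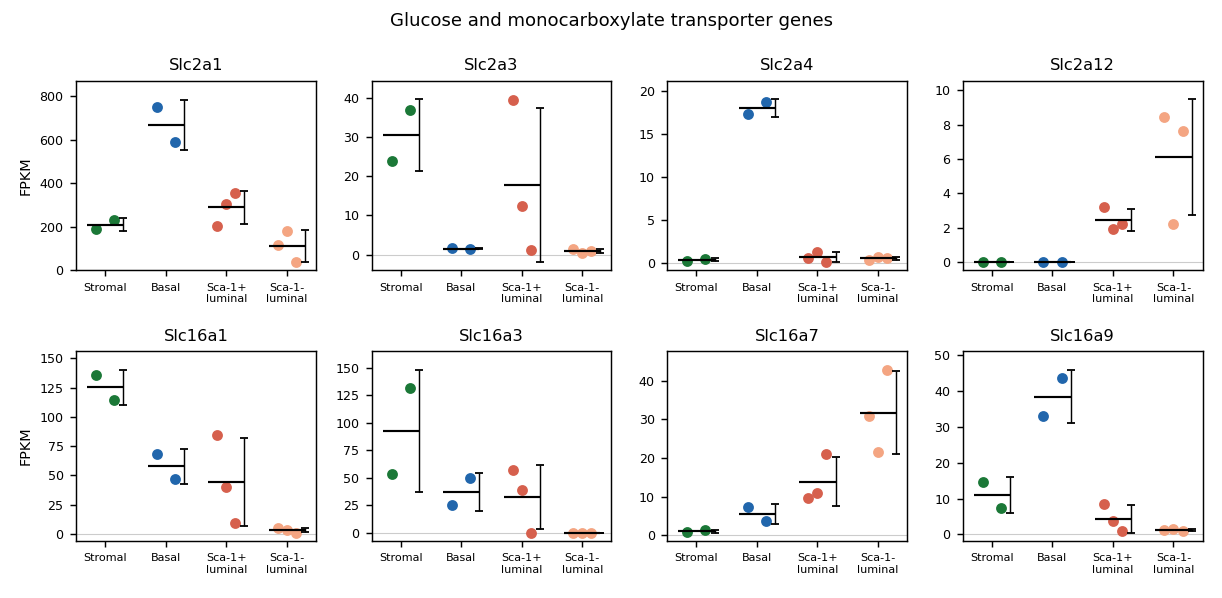
FPKM of glucose and monocarboxylate transporters in each library (points), with the group mean and SD (bars; n = 2 stromal, 2 basal, 3 Sca-1+ luminal and 3 Sca-1- luminal libraries), each panel on its own linear axis. Slc2a1, Slc2a4 and Slc16a9 are highest in the basal libraries and Slc16a7 in the Sca-1- luminal libraries, while in the Sca-1- luminal libraries Slc16a1 is at most 4.95 FPKM and Slc16a3 is at 0.

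Lactate and pyruvate carriers differed between the groups in which member led. Slc16a1 (MCT1), a proton-linked carrier encoded on chromosome 3 at 104638668 to 104658462 (mm10), had 136 and 115 FPKM in stromal, 67.9 and 47.2 FPKM in basal, 84.4, 40.0 and 9.01 FPKM in Sca-1+ luminal and 4.95, 3.46 and 1.19 FPKM in Sca-1- luminal libraries. No Sca-1- luminal library reached the level of any other library. Sca-1+ luminal cells exceeded Sca-1- luminal cells by 3.08 ± 0.67 and basal cells exceeded them by 3.90 ± 0.75 (SE; limma adjusted p = 0.00843 and 0.00247), and both calls held whichever library was left out. With replicate 3, the library with the least fibroblast marker RNA, as the lone Sca-1+ luminal library the first change was 1.37 (limma adjusted p = 0.104). Stromal cells exceeded the epithelial mean by 2.70 ± 0.66 (SE; limma adjusted p = 0.0122; not called without either stromal library, adjusted p up to 0.107).

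Slc16a3 (MCT4), known as a lactate exporter of glycolytic cells, was listed at 0 in 4 luminal libraries, namely the 3 of the Sca-1- group and replicate 3 of Sca-1+ luminal cells. Its level was 53.3 and 132 FPKM in stromal libraries, 24.9 and 49.4 FPKM in basal libraries, and 57.3 and 38.7 FPKM in replicates 1 and 2 of Sca-1+ luminal cells, so that the Sca-1+ values had the order of the fibroblast marker sums. Basal cells were called higher than Sca-1- luminal cells (limma adjusted p = 0.0135; not called without basal replicate 2, 0.0881). Sca-1+ luminal cells were called higher than Sca-1- luminal cells at an adjusted p of 0.0438, a call lost on leaving out any library other than Sca-1+ luminal replicate 3 (adjusted p up to 0.142). The 3′ end of Slc16a3 overlaps an isoform of the kinase gene Csnk1d on the other strand, and the library kit does not mark strand, so reads there cannot be told apart.

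Slc16a7 (MCT2; chromosome 10, 125219270 to 125389465, mm10), a proton-linked carrier with high affinity for pyruvate, had the opposite order, with 0.801 and 1.27 FPKM in stromal, 7.31 and 3.69 FPKM in basal, 9.53, 10.9 and 21.1 FPKM in Sca-1+ luminal and 30.9, 21.5 and 42.8 FPKM in Sca-1- luminal libraries. The 4 groups did not overlap, though replicate 3 of Sca-1+ and replicate 2 of Sca-1- luminal cells lay close together. Among the Sca-1- luminal libraries Slc16a7 too had the order of the seminal vesicle and leukocyte sums. Basal cells were lower than Sca-1- luminal cells by -2.34 ± 0.41 and stromal cells lower than the epithelial mean by -2.80 ± 0.35 (SE; limma adjusted p = 0.00138 and 0.000866), whichever library was left out. Sca-1+ luminal cells were lower than Sca-1- luminal cells by -1.17 ± 0.36 (SE; limma adjusted p = 0.0333), a call lost on omitting replicate 1 or 2 of Sca-1+ or replicate 1 or 3 of Sca-1- luminal cells (adjusted p up to 0.115). Slc16a7 gave 0.422% and 0.513% of the summed FPKM of the proton-linked carriers (Slc16a1, Slc16a3, Slc16a7 and Slc16a8) in stromal, 7.30% and 3.68% in basal, 6.31%, 12.2% and 69.9% in Sca-1+ luminal and 86.2%, 86.2% and 97.3% in Sca-1- luminal libraries. That sum was 190 and 248 FPKM in stromal, 100 and 100 FPKM in basal, 151, 89.6 and 30.1 FPKM in Sca-1+ luminal and 35.9, 25.0 and 44.0 FPKM in Sca-1- luminal libraries.

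Slc16a9 (MCT9), reported to carry carnitine, was highest in basal cells, at 33.1 and 43.7 FPKM. It had 14.6 and 7.39 FPKM in stromal, 8.62, 3.76 and 0.914 FPKM in Sca-1+ luminal and 1.26, 1.45 and 0.926 FPKM in Sca-1- luminal libraries. The basal pair did not overlap any other group, and the log2 change was 3.14 ± 0.57 against Sca-1+ and 4.15 ± 0.57 against Sca-1- luminal cells (SE; limma adjusted p = 0.00561 and 0.000378). The first call was lost without basal replicate 2 (0.0635). Slc16a11 was called higher in Sca-1+ relative to Sca-1- luminal cells and lower in stroma, and Slc16a13 lower in stroma. Slc16a6 was called higher in stroma, and Slc16a10, an aromatic amino acid carrier, lower in basal than in Sca-1- luminal cells.

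**Figure D5:**
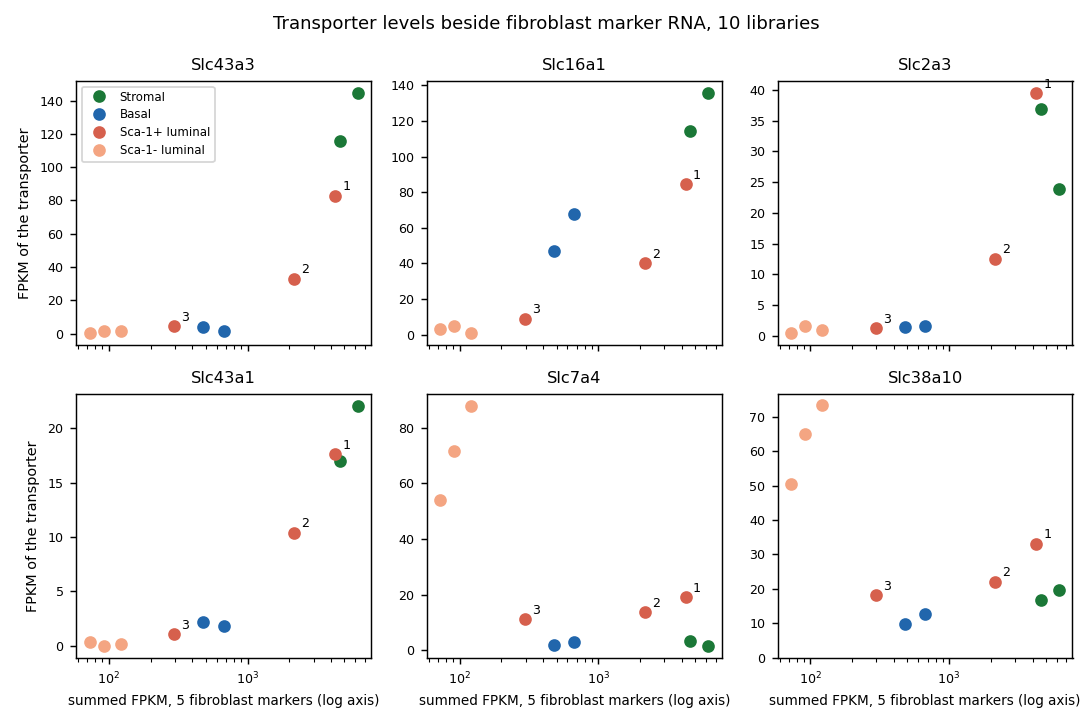
FPKM of members in each library against the summed FPKM of 5 fibroblast markers, with a log scale on the x axis and a linear y axis, groups marked by colour and Sca-1+ luminal libraries by replicate number. Slc43a3, Slc2a3 and Slc16a1 in the Sca-1+ luminal libraries are highest where the marker sum is 4263 FPKM and lowest where it is 297 FPKM, and Slc7a4 and Slc38a10 stay below the Sca-1- luminal libraries at all 3 sums.

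Over the Sca-1+ luminal calls as a whole, replicate 3 differed from the other replicates. Of the 15 members called higher than in Sca-1- luminal cells, 11 had their Sca-1+ values in the order of the fibroblast marker sums (Slc16a1, Slc16a3, Slc1a1, Slc2a10, Slc2a3, Slc38a5, Slc3a2, Slc43a1, Slc43a3, Slc6a12 and Slc6a6), as did 2 of the 3 called lower (Slc38a10 and Slc7a4). The endothelial and erythroid marker sums had that order too, so it is not particular to the fibroblast markers. Neither this order nor the next one was counted over all genes called, so these counts do not show a trait of the transporters. The order of the seminal vesicle and leukocyte sums in Sca-1- luminal libraries was shared by all 3 members called lower and by 2 of the 15 called higher (Slc43a3 and Slc6a6). With replicate 3 as the lone Sca-1+ luminal sample, the change against Sca-1- luminal cells was 2.63 for Slc16a11, 2.10 for Slc7a7, -1.72 for Slc38a10 and -2.54 for Slc7a4. The rest of the 18 calls against Sca-1- luminal cells were lost or not tested, and the share of all genes called fell too. Some calls of basal against Sca-1+ luminal cells were also lost in that fit, in which the share of all genes called fell as well. No called change of a tested member turned its sign in any alternative fit. Calls that held on omitting each library in turn were not counted over all genes, so the next counts do not show a trait of the transporters. Of the 18 calls, 6 held whichever of the 10 libraries was left out (Slc16a1, Slc16a11, Slc38a10, Slc43a3, Slc7a4 and Slc7a7). The number was 12 of 20 for basal against Sca-1- luminal cells, 3 of 13 for basal against Sca-1+ luminal cells (Slc2a4, Slc38a1 and Slc7a4) and 4 of 25 for stromal against epithelial cells (Slc16a7, Slc43a3, Slc6a12 and Slc7a4).

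Promoter sequence is shown for Slc2a1, Slc16a1 and Slc16a3, carriers of glucose and lactate whose group means were lowest in Sca-1- luminal cells. It is also shown for Slc38a10, whose group mean was highest there. Slc16a3 was listed at 0 in Sca-1+ luminal replicate 3 as well. These 4 were chosen with their values and sequences seen. Each window holds the 250 bases before the start of the gene in RefSeq (GRCm38.p6), read 5′ to 3′ on the strand of the gene. Capitals mark ACGTG on either strand (CACGT on the other strand), the core of the element that hypoxia-inducible factors bind. It overlaps CACGTG, the E-box that Myc and related factors bind.
Slc2a1, chr4:119108495-119108744, plus strand: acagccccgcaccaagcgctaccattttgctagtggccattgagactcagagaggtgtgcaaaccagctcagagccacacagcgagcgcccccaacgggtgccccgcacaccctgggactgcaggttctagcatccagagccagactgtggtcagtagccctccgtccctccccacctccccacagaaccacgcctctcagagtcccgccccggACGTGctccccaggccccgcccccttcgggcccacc
Slc16a1, chr3:104638414-104638663, plus strand: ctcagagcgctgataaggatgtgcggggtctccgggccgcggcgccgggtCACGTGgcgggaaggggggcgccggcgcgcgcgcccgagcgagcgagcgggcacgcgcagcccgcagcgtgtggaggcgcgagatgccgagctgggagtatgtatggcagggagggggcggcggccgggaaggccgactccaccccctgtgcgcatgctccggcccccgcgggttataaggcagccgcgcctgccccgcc
Slc16a3, chr11:120948817-120949066, plus strand: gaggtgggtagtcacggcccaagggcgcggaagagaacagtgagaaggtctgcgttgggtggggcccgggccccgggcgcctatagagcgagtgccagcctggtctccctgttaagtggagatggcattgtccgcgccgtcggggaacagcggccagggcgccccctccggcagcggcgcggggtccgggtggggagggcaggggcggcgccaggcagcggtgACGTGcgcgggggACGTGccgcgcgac
Slc38a10, chr11:120151352-120151601, minus strand: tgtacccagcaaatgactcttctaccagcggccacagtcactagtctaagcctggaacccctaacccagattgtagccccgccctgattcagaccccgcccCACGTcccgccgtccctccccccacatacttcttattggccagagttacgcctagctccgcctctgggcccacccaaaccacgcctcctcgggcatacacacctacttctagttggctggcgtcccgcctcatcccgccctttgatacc
ACGTG occurred in 16.6% of 32851 windows of this length in RefSeq and in 21.3% of the 47 windows of tested members, which covered 32 genes. CACGTG occurred in 6.02% of all windows and in 8.51% of those of tested members. In GENCODE M21 the Slc2a1 gene starts at 119108711, inside its window, and the Slc16a3 gene at 120948480, before its window. All 4 windows shown hold ACGTG, including that of Slc38a10, whose group mean was highest where those of the other 3 were lowest. A match is a description of the letters and not evidence of binding.

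Other genes of the same pathways were counted from 5 lists, each with few genes. Of 19 tested genes of glucose and lactate use, 8 (42.1%) were higher and 3 (15.8%) lower in Sca-1+ relative to Sca-1- luminal cells, against 21.8% and 13.4% of all genes tested. In basal against Sca-1- luminal cells 11 (57.9%) were higher and 6 (31.6%) lower, against 20.2% and 26% of all genes. Basal against Sca-1+ luminal cells gave 2 (10.5%) higher and 2 (10.5%) lower, against 4.39% and 15.5%, and stromal against epithelial cells 3 (15.8%) higher and 4 (21.1%) lower, against 15.8% and 18.5%. The same shares of all genes apply to the other lists. Pfkp, the platelet form of phosphofructokinase, had 64.0 and 118 FPKM in stromal, 91.5 and 80.2 FPKM in basal, 55.5, 43.5 and 15.6 FPKM in Sca-1+ luminal and 4.76, 4.51 and 1.11 FPKM in Sca-1- luminal libraries. It exceeded Sca-1- luminal cells by 3.09 in Sca-1+ luminal and 4.41 in basal cells (limma adjusted p = 0.00265 and 0.000299). Pdk4, which restrains entry of pyruvate into mitochondria, had 57.6 and 33.1 FPKM in basal libraries, against 0.292 to 4.44 FPKM in the other 8. Ldhd, a D-lactate dehydrogenase, had 4.79, 8.92 and 4.40 FPKM in Sca-1- luminal libraries and was listed at 0 in the other 7.

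Enzymes of amino acid synthesis and breakdown gave 6 (20%) higher and 10 (33.3%) lower of 30 tested in Sca-1+ against Sca-1- luminal cells, against 21.8% and 13.4% of all genes. The counts were 7 (23.3%) and 11 (36.7%) in basal against Sca-1- luminal cells, against 20.2% and 26% of all genes, 3 (10%) and 7 (23.3%) in basal against Sca-1+ luminal cells, against 4.39% and 15.5%, and 4 (13.3%) and 12 (40%) in stromal against epithelial cells, against 15.8% and 18.5%. Pycr1, which makes proline, had 2.40 and 3.32 FPKM in stromal, 1.12 and 3.77 FPKM in basal, 8.74, 9.78 and 4.47 FPKM in Sca-1+ luminal and 49.1, 49.4 and 45.7 FPKM in Sca-1- luminal libraries. It was lower than in Sca-1- luminal cells by -2.56 in Sca-1+ luminal and -3.95 in basal cells (limma adjusted p = 0.00105 and 6.6e-05). Bcat1, which transaminates branched-chain amino acids in the cytosol, was higher in stroma than in the epithelial mean by 3.32 (limma adjusted p = 0.00139), with 18.9 and 12.6 FPKM in stromal libraries, against 0 to 6.68 FPKM in the epithelial ones.

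Of 13 genes of the amino acid response, 3 (23.1%) were higher and 1 (7.69%) lower in Sca-1+ against Sca-1- luminal cells, against 21.8% and 13.4% of all genes. The counts were 5 (38.5%) and 2 (15.4%) in basal against Sca-1- luminal cells (all genes 20.2% and 26%), 1 (7.69%) and 1 (7.69%) in basal against Sca-1+ luminal cells (4.39% and 15.5%), and 2 (15.4%) and 3 (23.1%) in stromal against epithelial cells (15.8% and 18.5%). Ddit3 (CHOP), a stress-induced transcription factor, had 21.5 and 25.7 FPKM in basal and 41.7, 48.7 and 17.9 FPKM in Sca-1+ luminal libraries, against 201, 139 and 133 FPKM in Sca-1- luminal libraries. It was the 1 gene of the list called lower in Sca-1+ luminal cells. Cebpb, called higher there by 3.24, had 868, 685 and 265 FPKM in Sca-1+ and 68.8, 54.9 and 47.2 FPKM in Sca-1- luminal libraries. Among 16 tested genes of nutrient sensing by mTORC1, 1 (6.25%) was higher and 3 (18.8%) lower in Sca-1+ against Sca-1- luminal cells, against 21.8% and 13.4% of all genes. The counts were 2 (12.5%) and 5 (31.2%) in basal against Sca-1- luminal cells (all genes 20.2% and 26%), 0 and 3 (18.8%) in basal against Sca-1+ luminal cells (4.39% and 15.5%), and 1 (6.25%) and 2 (12.5%) in stromal against epithelial cells (15.8% and 18.5%). Lamtor2, a subunit of the lysosomal scaffold that recruits mTORC1, was lower by -1.28 in Sca-1+ luminal and -2.50 in basal cells than in Sca-1- luminal cells (limma adjusted p = 0.00335 and 7.3e-05).

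Partners and regulators of the transporters gave 5 (55.6%) higher and 0 lower of 9 tested in Sca-1+ against Sca-1- luminal cells, against 21.8% and 13.4% of all genes. The counts were 2 (22.2%) and 0 in basal against Sca-1- luminal cells (all genes 20.2% and 26%), 1 (11.1%) and 0 in basal against Sca-1+ luminal cells (4.39% and 15.5%), and 1 (11.1%) and 0 in stromal against epithelial cells (15.8% and 18.5%). Tbc1d1, which controls movement of GLUT4 vesicles, had 9.15 and 9.95 FPKM in stromal, 38.9 and 53.5 FPKM in basal, 16.1, 22.0 and 20.6 FPKM in Sca-1+ luminal and 3.73, 6.96 and 3.08 FPKM in Sca-1- luminal libraries, and like Slc2a4 it was highest in the basal pair. Basal cells exceeded Sca-1- luminal cells by 3.12 (limma adjusted p = 6.7e-05). Tbc1d4, a gene of the same kind in this list, was not highest in basal cells. It had 1.19 and 0.373 FPKM in basal and 2.01, 1.175 and 2.55 FPKM in Sca-1- luminal libraries. Emb (embigin), a chaperone of monocarboxylate carriers, was higher in Sca-1+ relative to Sca-1- luminal cells by 1.74 (limma adjusted p = 0.00541), with 19.1, 23.6 and 49.4 FPKM in Sca-1+ luminal and 8.39, 6.14 and 8.95 FPKM in Sca-1- luminal libraries.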

How the data were processed

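RNA of 10 libraries of sorted mouse prostate cells was examined. Per the submitters' processing notes, bcl2fastq 1.8.3, TopHat and Cufflinks were used with build mm10; no order or settings are given there. The authors deposited FPKM per transcript with confidence bounds, per the file headers. Per the labels' protocols, cDNA was made with random and poly(dT) priming by a NuGEN Ovation kit. That chemistry does not mark strand.

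Of 63241 transcripts, 85.3% were assigned to a gene by mm10 locus (GENCODE M21, then RefSeq GRCm38.p6), by shared ends or by a span overlap of at least 0.5. Transcripts under 300.0 nt (8006) were left out, since their values depend strongly on fragment length, as were 7 genes with a failed estimate, none of them a member. FPKM were summed per gene. Depth came from the relation of the confidence bounds to FPKM and transcript length: between 78.4% and 83.3% of the low values came out whole, to within 0.05 of a fragment. It is an estimate, so no counting interval is given.

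Tests ran in limma 3.58.1 (R 4.3.3) on log2(FPKM + 1) of 12467 genes with at least 1 FPKM in at least 2 libraries, with 1 mean per group over all 10 libraries, a variance trend and 6 residual degrees of freedom. Adjusted p-values are over all genes tested. The fit was tested on simulated data. Figures were drawn with matplotlib 3.10.9. Alternatives were other pseudocounts, filters, scalings, fits and the omission of each library, and, chosen after seeing the data, a block on runs of library numbers.

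Given with values are members called with a group mean of at least 10 FPKM, members with a group mean of at least 50 FPKM, and Slc3a1, Slc3a2, Slc7a5, Slc7a8, Slc7a11, Slc1a5, Slc38a2, Slc2a1, Slc2a3, Slc2a4, Slc16a1 and Slc16a3; other called members are named with their direction, except 1 member that is counted but not reported here. Slc7a7, Slc2a12, Slc38a5, Slc2a10, Slc6a12 and Slc7a2 also have values, a choice made after these were seen. The members and lists were chosen with earlier results of these data known.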

Additional observations from a re-analysis of the deposited data

How the results depend on the processing

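No called change of a member turned its sign in an alternative fit that gave a value. The Slc16a3 change of Sca-1+ against Sca-1- luminal cells was 0 with replicate 3 as the only Sca-1+ luminal library. Of the member calls, 9 of 18 (Sca-1+ against Sca-1- luminal), 17 of 20 (basal against Sca-1- luminal), 7 of 13 (basal against Sca-1+ luminal) and 21 of 25 (stromal against epithelial) held under each other pseudocount, filter, scaling, short-transcript and trend setting in which the member was tested. Calls lost without the filter on low values are not listed gene by gene above. For Sca-1+ against Sca-1- luminal cells they were Slc16a3, Slc16a7, Slc2a1, Slc2a3, Slc38a2, Slc38a5 and Slc6a6. Basal cells lost Slc6a2 and Slc7a6 against Sca-1- luminal cells, and Slc2a8, Slc38a5 and Slc6a6 against Sca-1+ luminal cells. Stromal cells lost Slc16a6, Slc1a3, Slc38a4 and Slc38a5. Fitting only the groups compared gave 9 members for Sca-1+ against Sca-1- luminal cells and 6 for basal against Sca-1+ luminal cells, with fewer libraries behind the spread. A filter of 5 FPKM gave 16 members for stromal against epithelial cells, of 31 tested. With replicate 3 as the only Sca-1+ luminal library, 5 members were called against Sca-1- luminal cells. That lone library is assumed to vary like the other groups. Leaving out 1 library at a time gave 7 to 23, 14 to 25, 3 to 23 and 7 to 29 members in the 4 comparisons, in the order above.

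Over all genes, leaving out 1 library gave 2727 to 5216 calls against 4395, 3720 to 6451 against 5759, 594 to 3590 against 2479, and 1436 to 4846 against 4272. Fitting only basal and Sca-1+ luminal libraries gave 1470 calls, and replicate 3 as the lone Sca-1+ luminal library gave 2009 against Sca-1- luminal cells. Median-of-ratios scaling and quantile normalization moved the median of all genes by -0.17 and -0.26 (log2) for Sca-1+ against Sca-1- luminal cells, by 0.27 and 0.37 for basal against Sca-1+ luminal cells, and by 0.10 each for basal against Sca-1- luminal cells. The share of higher calls among all genes was 62%, 46.4% and 40.5% for Sca-1+ against Sca-1- luminal cells under the deposited scaling, median-of-ratios scaling and quantile normalization, and 22.1%, 47.3% and 53.3% for basal against Sca-1+ luminal cells. The labels give no replicate numbers and do not say what the library numbers in the titles mark. A replicate block on runs of consecutive library numbers, chosen after seeing the data, gave 20, 22, 17 and 26 members in the 4 comparisons and kept 18 of 18, 20 of 20, 12 of 13 and 25 of 25 calls. Slc2a8 in basal against Sca-1+ luminal cells was the call it lost (limma adjusted p = 0.0548). With the block the Slc38a2 change of Sca-1+ against Sca-1- luminal cells was 1.56 ± 0.21 (SE; limma adjusted p = 0.00219), so calls lost on omitting a library in the fit without the block are not shown to be weaker effects. Deviations from group means correlated across genes at 0.15 to 0.39 within runs 1 and 2 and at -0.06 in run 3. Between runs 1 and 2 they correlated at -0.39 to -0.19, though in groups of 2 libraries the opposite sign is fixed. Between the luminal groups the values were 0.15 and 0.25 within runs 1 and 2, against -0.24 and -0.19 between them. Libraries of runs 1 and 2 thus deviated together. The labels do not say that the numbers pair the libraries, so the main fit did not pair them. Genes of the related lists were fitted in 1 setting. With 2 stromal and 2 basal libraries, leaving out either leaves 1 library in its group.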
